A study of Rattus norvegicus with 12 samples.

Results

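Rat theca-interstitial cells cultured with lipopolysaccharide (LPS) were compared with cells cultured with vehicle. The comparison takes every library labelled LPS and every library labelled Control, 8 of the 12 libraries in the series with 4 in each group, and covers the 17330 of 30045 gene rows that passed a filter on low counts. The cells came from wild type female Sprague Dawley rats at postnatal day 30 and were grown on plates coated with human fibronectin in McCoy's 5A medium. The labels give a dose of 1 µg/ml once, after both agents, and it was read as that of LPS. The Control cultures received vehicle alone, and both groups were collected after 48 h, so a single time was measured. The 4 remaining libraries came from the same kind of culture given rat interleukin-1 beta (IL1b); they entered the fit to share its estimate of the spread, and one direct contrast with LPS. Poly(A) RNA was sequenced after a strand-marking library preparation. The labels do not say whether the replicates of a group are separate animals or separate wells, so p-values measure the spread between these libraries, which may be technical.

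Theca cells form the outer steroid-producing layer of the ovarian follicle and make androgens under luteinizing hormone, and interstitial preparations also hold fibroblasts, smooth muscle-like cells, vessel cells and resident macrophages. LPS, the outer membrane lipid of Gram-negative bacteria, is handed by Lbp and Cd14 to the receptor pair Tlr4 and Ly96, which signals through the adaptor Myd88 to the transcription factor NF-kB and through Ticam1 to interferon genes. The released factors include chemokines, interleukins and acute-phase proteins, and NF-kB also switches on its own inhibitors, which bring the response back down.

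The LPS cultures had 3898 genes higher and 3460 genes lower than the Control cultures at an adjusted p under 0.05 in edgeR's quasi-likelihood test. These are 42.5% of the genes tested, 22.5% higher and 20.0% lower, so the shares in any gene group below are read against those backgrounds. Higher genes made up 53.0% of the calls with TMM scaling, and 63.4% (5011 higher, 2896 lower) with library sizes alone. Most of the differences were small: the median size among called genes was 0.29 on the log2 scale, and 5482 of them (74.5%) were under 1.5-fold. At 2-fold or more there were 398 genes higher (2.30%) and 387 lower (2.23%), at 4-fold or more 104 higher and 55 lower, and at 16-fold or more 13 higher and 4 lower. The 4 LPS libraries lay entirely above or entirely below the 4 Control libraries for 6646 genes (38.3%). The genes farthest above Control coded for secreted defence proteins, chemokines and a phospholipase, and those farthest below for sarcomere proteins and macrophage proteins.

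**Figure D1:**
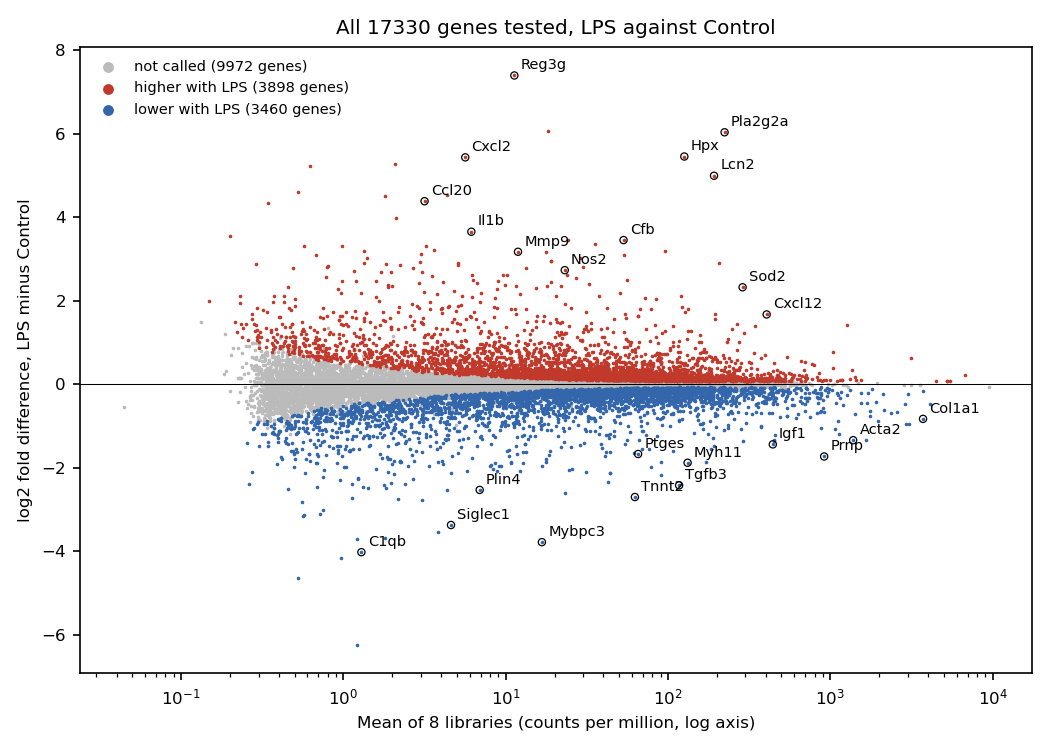
Each point is 1 of 17330 genes, with its mean CPM over the 8 libraries on the log x axis and its log2 difference, LPS minus Control, on the y axis. Red points are the 3898 genes called higher, blue points the 3460 called lower and grey points the rest; the circled secreted and defence genes sit at the top, and the circled sarcomere, macrophage and growth factor genes at the bottom.

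Total counts ran from 20873934 to 32090924 per Control library and from 25643226 to 28698783 per LPS library. The coefficient of biological variation over all libraries was 3.79%, and the first principal component of the 8 libraries, with 66.7% of their variance, separated LPS from Control. The second component, with 7.89%, separated LPS libraries 1 and 2 (-12.2 and -17.1) from LPS libraries 3 and 4 (16.7 and 11.8), while the Control libraries lay between -3.57 and 4.03. Values below are scaled counts (CPM, counts-per-million on TMM-scaled library sizes) for libraries 1 to 4 of each group in order, differences are log2 LPS minus Control with the standard error of the fit, and a gene is said to have risen or fallen only where its adjusted p was under 0.05. RNA came from whole cultures, so a fall of a gene through fewer cells of a type and through less RNA per cell cannot be told apart.

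**Figure D2:**
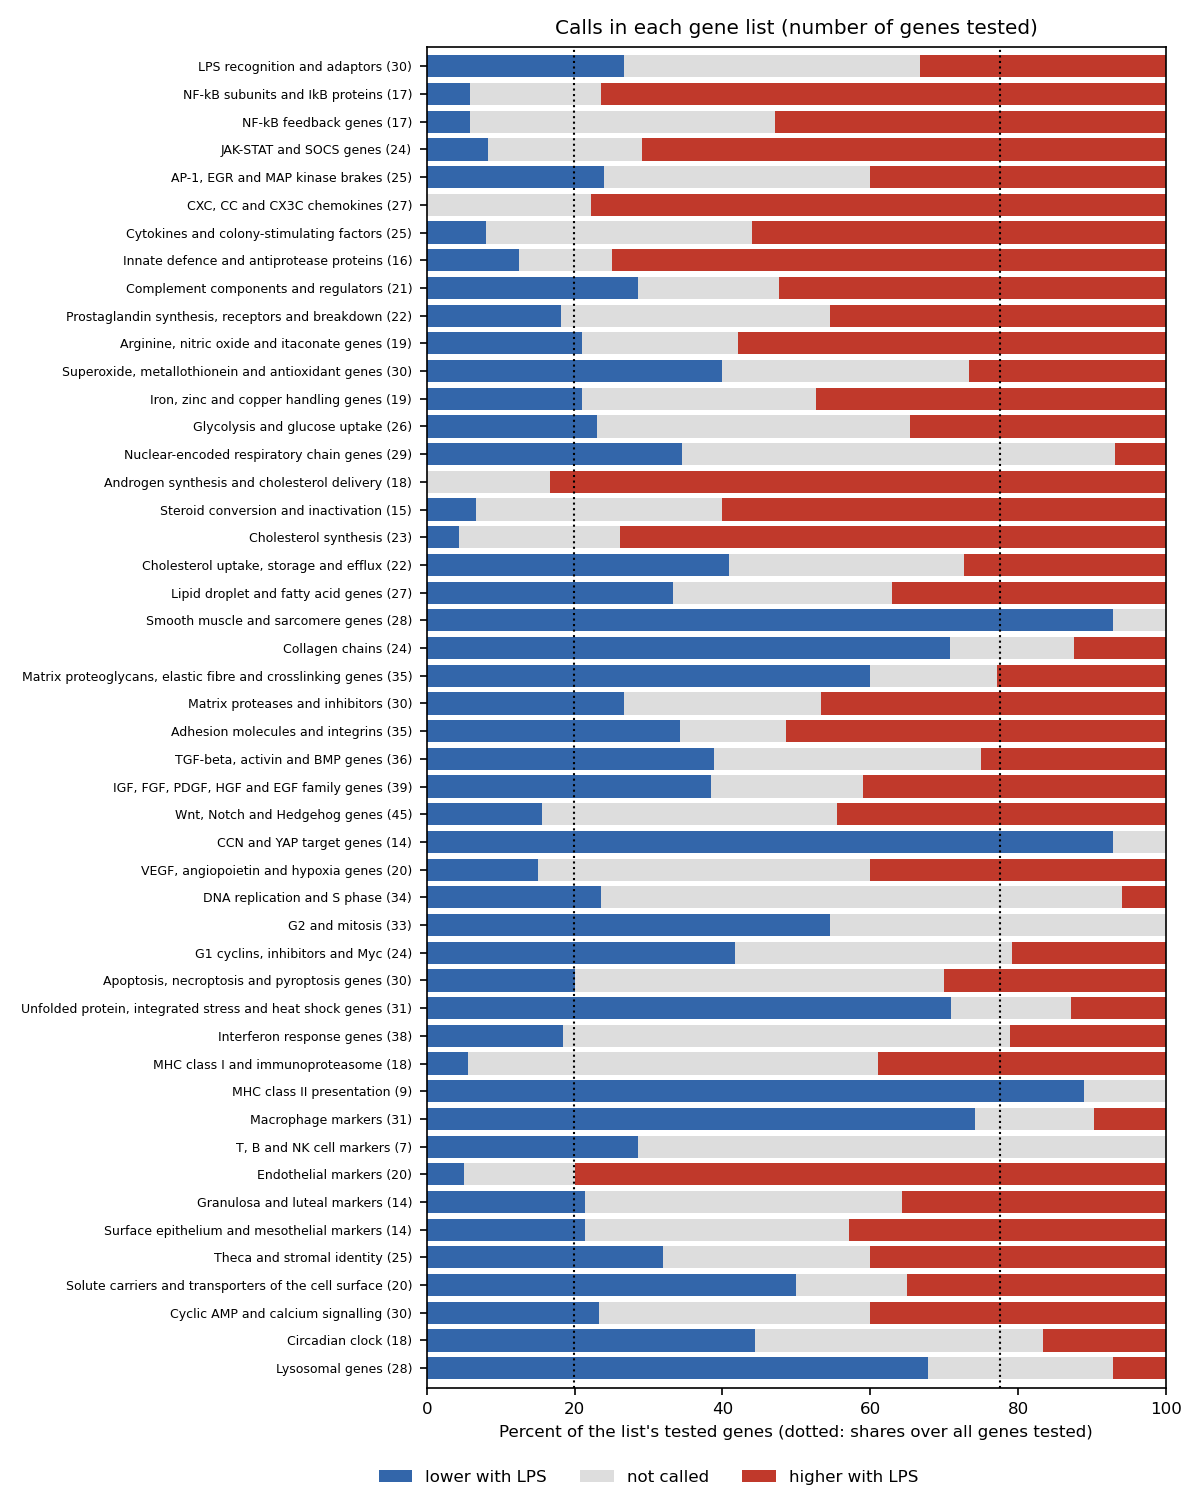
Each bar is 1 gene list, with the number of genes tested in brackets, split by the percent of its genes called lower (blue), not called (grey) and called higher (red) with LPS. Dotted lines mark the shares over all genes tested, 20.0% lower and 22.5% higher; chemokine, NF-kB, defence and androgen synthesis lists are mostly red, and smooth muscle, collagen, macrophage and MHC class II lists are mostly blue.

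The receptor that senses LPS was lower in the LPS cultures, while several of the proteins around it were higher. Tlr4 had 15.9, 14.6, 16.7 and 14.4 CPM in the Control libraries and 10.8, 10.8, 12.7 and 10.6 CPM in the LPS libraries, a difference of -0.45 ± 0.07 (edgeR adjusted p = 4.48e-06), and the groups did not overlap. Its partner Ly96 had 15.9, 14.2, 14.3 and 14.4 CPM and 13.6, 12.7, 14.2 and 13.8 CPM, which did not pass the test (-0.12 ± 0.06). Lbp, the serum protein that carries LPS to the cell, went from 2.28, 2.85, 2.24 and 2.27 CPM to 5.96, 6.05, 4.44 and 5.56 CPM (1.19 ± 0.12), so all LPS libraries were above all Control libraries. Tlr2, which senses bacterial lipoproteins, rose from 12.3, 9.6, 12.2 and 12.3 CPM to 31.3, 30.7, 35.7 and 33.4 CPM (1.49 ± 0.07). Cd14 rose by 0.30, and Irak3, a kinase-like protein that damps the pathway, went from 14.1, 13.8, 14.7 and 13.6 CPM to 30, 26.6, 33.6 and 30.5 CPM (1.10 ± 0.07). Cd180, a Tlr4-like receptor of B cells and macrophages, fell from 2.98, 3.28, 2.54 and 2.83 CPM to 0.585, 1.12, 0.702 and 0.945 CPM (-1.79 ± 0.18). Of the 30 tested genes of LPS recognition and its adaptors, 10 rose, 8 fell and 12 did not pass the test, with a median difference of 0.03 against 0.010 over all genes; 5 fell with LPS libraries 3 and 4 alone.

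The NF-kB family and the inhibitors it induces were higher almost throughout. Of 17 tested subunits, IkB proteins and their kinases, 13 rose and 1 fell, with a median of 0.66. The largest rises were in the nuclear IkB proteins that steer which genes NF-kB turns on: Bcl3 went from 8.19, 6.91, 6.69 and 6.65 CPM to 35.7, 39, 35.3 and 36.1 CPM (2.35 ± 0.06) and Nfkbiz from 16.1, 12.7, 14 and 13.2 CPM to 58, 61.8, 64.3 and 60.4 CPM (2.12 ± 0.06). Every LPS library was above every Control library for both. Nfkbia, the inhibitor that holds NF-kB in the cytoplasm, went from 60.1, 51.8, 55.8 and 55.4 CPM to 140, 136, 132 and 133 CPM (1.28 ± 0.04). The subunits Relb (1.31 ± 0.04) and Nfkb2 (1.00 ± 0.03) of the slower, non-canonical arm rose more than Rela (0.40 ± 0.03), the main partner of the fast arm. The kinase of the slower arm, Map3k14, was the member that fell (-0.28 ± 0.10); this call was lost without Control library 1, 2 or 4 (-0.26, -0.24 and -0.26), without LPS library 4 (-0.25), and with either pair of LPS libraries alone (-0.26 and -0.30).

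Most NF-kB feedback genes either rose or did not pass the test. Tnfaip3, the ubiquitin editor A20, went from 35.9, 31.2, 33.4 and 30.1 CPM to 127, 137, 141 and 135 CPM (2.05 ± 0.04), and Zc3h12a, an RNase that degrades cytokine messages, from 28.2, 24.1, 25 and 25.5 CPM to 79.9, 84.2, 81.7 and 87.6 CPM (1.69 ± 0.05). Neither gene overlapped between groups. The survival and adaptor genes Traf1 (1.90), Birc3 (1.39), Tnip1 (1.09), Tnip3 (2.18) and Tnfaip2 (1.27) also rose. The deubiquitinase Cyld (-0.03 ± 0.04) and the message-decay factor Zfp36 (-0.05 ± 0.05) did not pass the test. In all, 9 of 17 tested feedback genes rose, 7 of them by at least 2-fold, and 1 fell.

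Proximal promoters of several of these genes hold a kB motif, the letters that NF-kB binds. The bases are shown because most tested NF-kB subunit, IkB and chemokine genes rose. RefSeq promoters (GRCr8, 250 bases before to 50 bases after the start) were matched to 11976 of the 17330 genes tested, or 69.1%, and the consensus kB motif was searched on both strands by name. A match was found in 9.86% of those promoters, and in 9 of the 14 promoters matched for the 17 tested NF-kB subunit and IkB genes (64.3%). It was found in 2 of the 14 promoters matched for the 17 feedback genes (14.3%). It was found in 8 of the 21 promoters matched for the 27 tested chemokines and in 19 of the 63 matched for the 104 genes called at least 4-fold higher. Promoters were matched for 77.8% of the chemokines and 60.6% of the genes at 4-fold or more, and with that many members unmatched a check of either set is void, so these are counts over the matched promoters; the 9.86% over all genes likewise covers matched promoters alone. Each line gives up to 40 bases on either side of a match, cut at the gene start or at the upstream end of the promoter. The bases are in lower case, 5′ to 3′ on the gene's strand, with the matching bases in capitals. The windows are Bcl3 chr1:88613556-88613633 (minus strand), Nfkbiz chr11:58251668-58251720 (plus), Nfkbia chr6:78597073-78597143 (minus), Nfkb2 chr1:255108314-255108373 (plus), Cxcl2 chr14:17467280-17467369 (minus), Cxcl6 chr14:17596456-17596545 (minus), Ccl20 chr9:91837030-91837119 (plus), Il6 chr4:5894594-5894683 (minus), Vcam1 chr2:206742827-206742916 (minus), Ubd chr20:1392686-1392740 (minus), Tapbp chr20:4967889-4967978 (minus) and Kif23 chr8:71320764-71320834 (minus).
Bcl3: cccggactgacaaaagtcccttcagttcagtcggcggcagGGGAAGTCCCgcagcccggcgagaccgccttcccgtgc
Nfkbiz: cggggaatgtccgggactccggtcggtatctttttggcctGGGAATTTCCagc
Nfkbia: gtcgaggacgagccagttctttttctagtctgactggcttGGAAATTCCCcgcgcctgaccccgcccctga
Nfkb2: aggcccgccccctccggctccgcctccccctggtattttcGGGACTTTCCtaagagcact
Cxcl2: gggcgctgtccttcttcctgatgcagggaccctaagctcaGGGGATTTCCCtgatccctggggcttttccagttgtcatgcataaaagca
Cxcl6: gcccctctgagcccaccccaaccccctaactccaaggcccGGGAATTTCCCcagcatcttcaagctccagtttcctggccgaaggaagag
Ccl20: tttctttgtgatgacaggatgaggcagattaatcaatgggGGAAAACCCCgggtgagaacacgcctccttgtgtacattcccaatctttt
Il6: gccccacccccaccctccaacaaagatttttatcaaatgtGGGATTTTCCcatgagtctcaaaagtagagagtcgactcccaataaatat
Vcam1: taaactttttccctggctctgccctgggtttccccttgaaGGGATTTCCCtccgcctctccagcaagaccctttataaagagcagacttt
Ubd: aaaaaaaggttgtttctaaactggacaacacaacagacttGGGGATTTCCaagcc
Tapbp: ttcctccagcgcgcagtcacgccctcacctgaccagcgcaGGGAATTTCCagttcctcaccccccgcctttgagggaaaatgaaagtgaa
Kif23: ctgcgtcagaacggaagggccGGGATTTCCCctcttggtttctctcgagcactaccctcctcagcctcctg

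The same capital letters stood before genes with different responses. Nfkbiz and the peptide-loading gene Tapbp share their capitals, and their differences were 2.12 ± 0.06 and 0.22 ± 0.04. Vcam1, an adhesion molecule for leukocytes, and Kif23, a kinesin of cell division, also share theirs, and Vcam1 rose by 2.41 ± 0.08 while Kif23 fell (-0.82 ± 0.06). A match is a run of letters and not a measured binding site.

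Genes of the JAK-STAT path, which relays the interleukin-6 family, were mostly higher. Jak2 had 54.2, 54.4, 51.6 and 50.2 CPM in Control and 190, 187, 195 and 193 CPM with LPS (1.86 ± 0.03, edgeR adjusted p = 3.11e-25), and the libraries within each group were close together. Socs3, the inhibitor that STAT3 induces, went from 19.1, 18.1, 19.8 and 18 CPM to 77.3, 68.2, 56.1 and 61.8 CPM (1.82 ± 0.09), with LPS libraries 1 and 2 above LPS libraries 3 and 4. Stat3 rose by 0.38 ± 0.03, and the receptor chains Osmr (1.27), Il6r (0.95) and Il6st (0.65) rose with it. Of 24 tested genes in the list 17 rose and 2 fell, with 1 fall under library sizes alone or without any 1 of Control libraries 1, 2 and 4 and LPS libraries 1, 2 and 4. Among 25 AP-1, EGR and MAP kinase phosphatase genes, 10 rose and 6 fell.

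Chemokines, the secreted proteins that draw leukocytes, rose in 21 of 27 tested genes and none fell, with a median of 1.60. The largest rises were in Cxcl6 (6.07) and Cxcl2, which call neutrophils, and in Ccl20 (4.38), which calls lymphocytes and dendritic cells. Cxcl2 went from 0.159, 0.273, 0.439 and 0.198 CPM to 11, 9.13, 12.7 and 11.1 CPM (5.43 ± 0.22) and Cxcl3 from 5.11, 3.82, 3.86 and 3.39 CPM to 39.4, 37.4, 56.8 and 44.7 CPM (3.45 ± 0.18), and Cxcl1 from 21.6, 16.3, 20.3 and 16.3 CPM to 165, 164, 185 and 173 CPM (3.20 ± 0.09). In each case the lowest LPS library was several times the highest Control library. The monocyte chemokine Ccl7 went from 13.6, 10.1, 11.8 and 9.35 CPM to 84.3, 85.2, 115 and 97.4 CPM (3.09 ± 0.14), and Ccl19, which guides dendritic cells and T cells, from 0.539, 0.507, 0.586 and 0.527 CPM to 3.69, 4.23, 4.01 and 3.67 CPM (2.85 ± 0.17). Cxcl12, made by stroma without inflammation, also rose, from 198, 189, 198 and 188 CPM to 629, 584, 628 and 624 CPM (1.67 ± 0.04), and its groups were far apart. Cxcl10, a chemokine tied to interferon, did not pass the test (-0.05 ± 0.14). It had 60.6, 57.5, 52.4 and 55 CPM in Control and 44.9, 54, 65.8 and 53.9 CPM with LPS, and the groups overlapped. Of the other members that did not pass, Ccl5 was at -0.03 ± 0.20 and Ccl11 at 0.29 ± 0.20. Cxcl17, Ccl17, Ccl25 and Ccl28 were under the filter.

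Several risen chemokine genes were neighbours in a reduced gene order. The RefSeq order was taken over the 11662 tested protein-coding genes matched to a promoter. All other genes were skipped, so some may lie between the neighbours named here. In that order, 3 chemokines that all rose at least 4-fold ran together: Cxcl2, Cxcl1 and Cxcl6 (differences 5.43, 3.20 and 6.07). The other such runs were Ccl7 and Ccl12 (3.09 and 2.44) and Il1a and Il1b (2.90 and 3.65). They also included the phospholipases Pla2g5 and Pla2g2a (2.58 and 6.03) and the Reg3b, Reg1a and Reg3g group (5.26, 5.23 and 7.39). Reg1a had 3 counts over the Control libraries and 134 over the LPS libraries, a ratio of 43.8 with a 95% interval of 14.7 to 215 that covers counting error only. The 3 runs that fell at least 4-fold were all of macrophage genes: C1qb and C1qa (-4.02 and -3.53), Ms4a7 and Ms4a4a (-2.81 and -2.49) and Clec4a1 and Clec4a3 (-2.41 and -2.74). Genes of a run are close relatives, so how shared reads were counted could touch them together.

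Among cytokines and colony-stimulating factors 14 of 25 tested genes rose and 2 fell, with 1 fall without Control library 4 or LPS library 4. Csf3, which drives neutrophil production, went from 0.0635, 0.039, 0 and 0.0329 CPM to 0.695, 0.735, 1.48 and 1.15 CPM (4.60 ± 0.48). Il7, a lymphocyte survival factor, went from 1.52, 1.25, 1.27 and 1.45 CPM to 6.18, 6.93, 6.24 and 5.35 CPM (2.15 ± 0.13). Il10, an anti-inflammatory cytokine, went from 0.0952, 0.195, 0.0976 and 0.0988 CPM to 1.06, 0.91, 0.779 and 0.7 CPM (2.79 ± 0.34), with all LPS libraries above all Control libraries at a low level. Tnfsf13b, the B cell factor BAFF, rose by 2.28 ± 0.24, Lif by 1.02 ± 0.09 and the macrophage growth factor Csf1 by 0.40 ± 0.06. The 2 that fell were Cd40 (-0.56 ± 0.18) and Ebi3 (-0.69 ± 0.16). Tnf (0.46 ± 0.25) and Il1rn (0.05 ± 0.13) were among the 9 that did not pass the test. Csf2, Il12a, Il12b, Lta, Tnfsf11, Il36b and Ifnb1 were under the filter.

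Secreted defence proteins were among the genes with the largest rises in the comparison. Of 16 tested innate defence and antiprotease genes 12 rose, 11 of them by at least 2-fold, and 2 fell, with a median of 2.60. Lcn2, which withholds bacterial iron carriers, had 12.3, 12.5, 11.2 and 10.7 CPM in Control and 366, 359, 386 and 380 CPM with LPS (4.99 ± 0.04). Hpx, the plasma carrier of free heme, had 6.66, 4.84, 5.37 and 5.37 CPM and 240, 243, 253 and 248 CPM (5.45 ± 0.10), and both genes stayed low in every Control library. Reg3g, an antibacterial lectin, went from 0.254, 0.0781, 0.0488 and 0.0988 CPM, or 1 to 8 counts, to 22.3, 24.8, 20.1 and 22.7 CPM. The antiproteases Slpi (4.51 ± 0.25) and A2m (2.94 ± 0.14, uncertain because of a row that may be its near copy), the copper protein Cp (1.73) and the pentraxin Ptx3 (1.19) also rose. Haptoglobin, Hp, which carries free hemoglobin and rises in the liver's acute phase, fell here from 10.3, 11, 10.6 and 10.3 CPM to 7.53, 6.51, 6.59 and 6.02 CPM (-0.66 ± 0.08). Beyond the lists, Tfr2, a transferrin receptor, went from 0.412, 0.351, 0.488 and 0.23 CPM to 8.34, 8.96, 7.21 and 8.96 CPM (4.52 ± 0.16) and the sialyltransferase St6galnac1 rose by 3.97 ± 0.22.

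**Figure D3:**
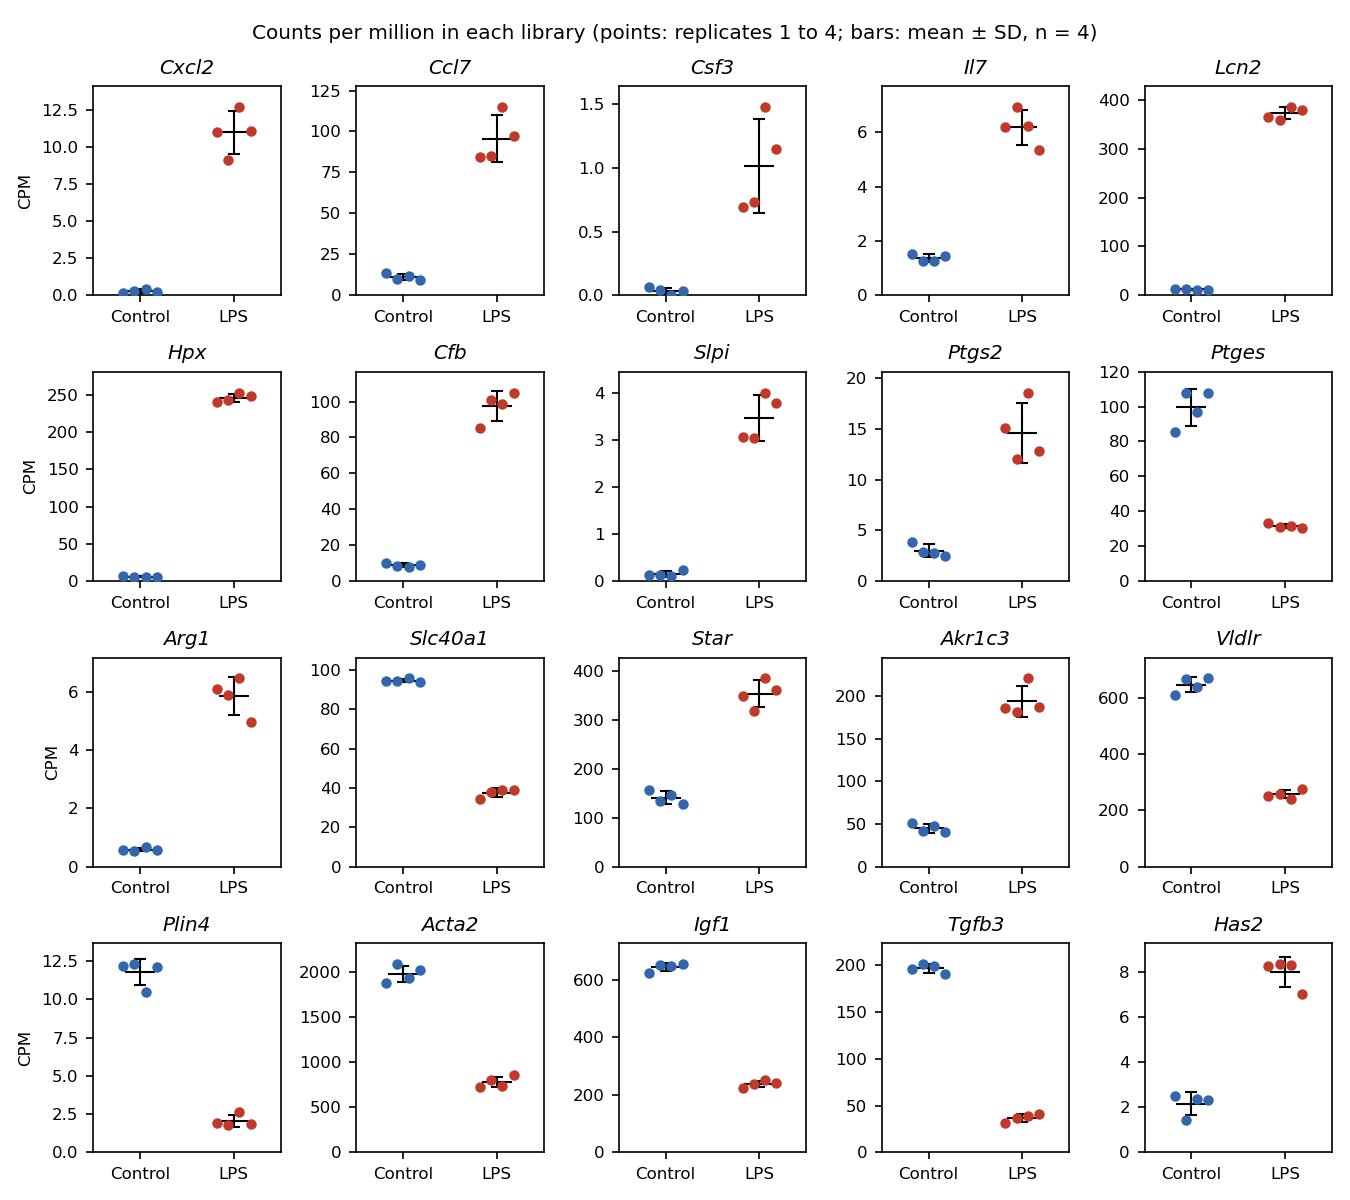
Each panel gives the CPM of 1 gene in the 4 Control libraries (blue) and the 4 LPS libraries (red), in the order of their replicate numbers, with bars for the mean ± SD (n = 4) on an axis that starts at 0. In all 20 panels the groups do not overlap; Ptges, Slc40a1, Vldlr, Plin4, Acta2, Igf1 and Tgfb3 are lower with LPS and the rest are higher.

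Complement genes moved both ways, 11 of 21 higher and 6 lower. Factor B, Cfb, the protease of the alternative pathway, went from 10.1, 8.2, 7.95 and 9.09 CPM to 85.4, 101, 98.8 and 105 CPM (3.45 ± 0.09), the terminal component C6 rose by 2.47 and the shielding protein Cd55 by 1.25. C1qb, the recognition chain made by macrophages, fell from 1.97, 2.81, 2.34 and 2.63 CPM to 0.256, 0.07, 0.195 and 0.07 CPM (-4.02 ± 0.29); the macrophage marker sums that fell with it are given below, and their part in this fall was not tested. The C1 inhibitor Serping1 rose from 76.6, 73.2, 66.5 and 68.9 CPM to 114, 134, 105 and 120 CPM (0.73 ± 0.08).

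In prostaglandin synthesis, the phospholipases Pla2g2a and Pla2g5 and the inducible cyclooxygenase rose, while 3 terminal synthases fell and Ptges2 rose slightly (0.26). Pla2g2a, the secreted phospholipase that frees fatty acids from membranes, had 7.65, 5.54, 8.59 and 5.47 CPM in Control and 432, 412, 464 and 450 CPM with LPS (6.03 ± 0.09). Its relative Pla2g5 went from 1.24, 0.663, 1.46 and 0.724 CPM to 5.56, 5.81, 6.31 and 6.4 CPM (2.58 ± 0.16). Ptgs2, the inducible cyclooxygenase, went from 3.87, 2.89, 2.73 and 2.44 CPM to 15.1, 12, 18.6 and 12.8 CPM (2.27 ± 0.18). The 3 enzymes were thus above Control in every LPS library. Ptgs1, the constitutive cyclooxygenase, did not pass the test (-0.08 ± 0.13). Ptges, the synthase that makes prostaglandin E2 from the product of Ptgs2, went the other way, from 85.7, 108, 97 and 108 CPM to 33, 30.7, 31.5 and 30.2 CPM (-1.67 ± 0.10, edgeR adjusted p = 1.26e-07). Ptgis, the prostacyclin synthase, fell by a smaller amount (-0.49 ± 0.07), as did Tbxas1, the thromboxane synthase (-0.98 ± 0.17), and Ptger4, a prostaglandin E2 receptor (-0.58 ± 0.08). Slco2a1, the carrier that takes prostaglandins into cells for breakdown, went from 1.4, 1.72, 2.05 and 2.47 CPM to 9.98, 10.5, 10.6 and 11.7 CPM (2.49 ± 0.11), and Alox15, a lipoxygenase, rose by 2.87 ± 0.21. In the list 10 of 22 rose and 4 fell.

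Enzymes that use arginine moved both ways. Nos2, the inducible nitric oxide synthase, had 5.46, 6.44, 6.05 and 6.32 CPM in Control and 40.5, 36.8, 44 and 39.5 CPM with LPS (2.73 ± 0.08); a row that may be a near copy of Nos2 makes this value uncertain. Arg1, the arginase that competes with it, went from 0.571, 0.546, 0.683 and 0.56 CPM to 6.11, 5.91, 6.47 and 4.97 CPM (3.32 ± 0.15), and both genes were above Control in every LPS library. Nos1, the neuronal synthase, fell (-0.60 ± 0.17), a call lost with LPS libraries 1 and 2 alone (-0.33). Arg2, the mitochondrial arginase, did not pass the test (-0.33 ± 0.16) but was lower without LPS library 2 (-0.54), with LPS libraries 3 and 4 alone (-0.68) and without the filter (-0.33). Gch1, which makes the cofactor of Nos2, rose by 1.63 ± 0.16, the arginine carrier Slc7a2 by 0.60 ± 0.06, and Ass1, which rebuilds arginine from citrulline, by 0.83 ± 0.22, a rise that no longer passed with LPS libraries 3 and 4 alone (0.62). Irg1, the itaconate-forming enzyme of activated macrophages, went from 0.539, 0.937, 0.488 and 0.757 CPM to 4.68, 4.58, 5.85 and 5.74 CPM (2.92 ± 0.17) while the macrophage marker sum fell. Of 19 tested genes 11 rose and 4 fell.

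The gene for iron export fell, and genes for metal import moved both ways. Slc40a1, ferroportin, the iron exporter, had 94.5, 94.2, 95.6 and 93.6 CPM in Control and 34.3, 37.9, 38.9 and 39 CPM with LPS (-1.33 ± 0.04, edgeR adjusted p = 5.71e-21). Slc39a14, an importer of zinc and iron, went from 52.7, 48.9, 50.1 and 49.7 CPM to 108, 98.2, 106 and 102 CPM (1.04 ± 0.03), Slc11a2, the divalent metal carrier, rose by 0.70 ± 0.03, and the metalloreductases Steap4 and Steap1 by 2.77 ± 0.11 and 1.55 ± 0.09. Transferrin, Tf, rose by 1.36 ± 0.09. The transferrin receptor Tfrc did not pass the test (-0.20 ± 0.10) in edgeR, though it did in limma-voom (-0.20), and Slc11a1, the metal carrier of phagocyte vesicles, fell (-0.63 ± 0.08). Of the 19 genes tested 9 rose and 4 fell. Mitochondrial superoxide dismutase, Sod2, went from 103, 89.8, 96.8 and 94.9 CPM to 476, 456, 494 and 490 CPM (2.32 ± 0.03) and the metallothionein Mt2A rose by 1.51 ± 0.07, but the wider antioxidant list had 8 genes higher and 12 lower of 30. Gpx1 (-0.66) and the oxidase subunit Ncf1 (-1.10) fell, and Hmox1, heme oxygenase, did not pass the test (-0.34 ± 0.17) in edgeR.

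Energy genes moved little. Of 26 glycolysis genes 9 rose and 6 fell, with a median of 0.08. Of 29 nuclear-encoded respiratory chain genes 2 rose (1 without Control library 4 or LPS library 2) and 10 fell, with a median of -0.02, and 5 fell with LPS libraries 3 and 4 alone. Hk2, a hexokinase induced in activated macrophages, did not pass the test (0.17 ± 0.09), though it did without the filter (0.17). Pfkfb3, a driver of glycolysis, fell (-0.32 ± 0.05), and so did Pdk4, which shuts pyruvate out of the mitochondrion (-0.67 ± 0.12).

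Genes of androgen synthesis and cholesterol delivery rose in 15 of 18 tested cases and none fell. Their median was 0.72, and 8 rose by 2-fold or more. The list also holds the hormone Insl3, whose rise was lost in several alternatives given below. Cyp19a1, the estrogen-forming aromatase, is in the list too and among those 8, and it rose at a low level (1.43 ± 0.46). Hsd17b3, a further member, was under the filter. Cyp17a1, the androgen-forming lyase, was uneven among the LPS cultures: it had 0.571, 0.546, 0.634 and 0.395 CPM in Control and 5.23, 3.43, 1.99 and 2.9 CPM with LPS, so that LPS library 3 lay below LPS library 1 by more than the whole Control range, though every LPS library was above every Control library. Cyp11a1, the first enzyme of the path, had 38.4, 30, 28 and 30.5 CPM with LPS against 3.9, 3.43, 3.56 and 3.29 CPM in Control (3.16 ± 0.14). Hsd3b6, the next enzyme, rose by 1.64 ± 0.11, and a row that may be its near copy makes this value uncertain. The nuclear receptor Nr4a1, which acts on steroid genes, rose by 1.47 ± 0.07. Among 15 genes that convert or inactivate steroids 9 rose and 1 fell (2 without LPS library 2), Akr1c14 rising by 0.78 ± 0.04. The progesterone receptor Pgr fell from 6.76, 7.42, 8.2 and 7.61 CPM to 2.16, 1.36, 1.33 and 1.99 CPM (-2.12 ± 0.13). Of the 23 cholesterol synthesis genes 17 rose and 1 fell, none by 2-fold, with a median of 0.22.

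Lipid uptake and storage genes went both ways. Vldlr, the receptor for triglyceride-rich lipoproteins, had 611, 666, 640 and 669 CPM in Control and 252, 259, 241 and 275 CPM with LPS (-1.33 ± 0.03, edgeR adjusted p = 8.17e-21). Plin4, a coat protein of fat droplets, went from 12.2, 12.3, 10.5 and 12.1 CPM to 1.94, 1.82, 2.61 and 1.85 CPM (-2.53 ± 0.16), and the fatty acid carriers Fabp4 (-2.76 ± 0.18) and Fabp3 (-0.86 ± 0.06) fell with it. All LPS libraries were below all Control libraries for Vldlr and Plin4. The droplet coat genes Plin2 (0.29 ± 0.03) and Plin3 (0.19 ± 0.03) rose. Pparg, the factor that turns on fat storage genes, fell from 26.6, 28.5, 29 and 30.3 CPM to 18.5, 18.8, 23.6 and 17.4 CPM (-0.55 ± 0.09); Lpl (-0.77), Cd36 (-0.93) and the phospholipid transfer protein Pltp (-1.21) also fell. Fabp4 and Cd36 are also made by macrophages and endothelium, and the part of those cells was not tested. Cebpd went from 8.28, 9.29, 9.52 and 11.8 CPM to 33.9, 35.8, 36.5 and 41.3 CPM (1.92 ± 0.09), and Cebpb rose by 0.89 ± 0.12; both factors act early in fat cell formation and in the acute phase. Ch25h, which makes 25-hydroxycholesterol, rose by 1.80 ± 0.14 and the sterol exporter Abcg1 by 1.08 ± 0.08, whereas its relative Abca1 did not pass the test (0.08 ± 0.13). Counts were 6 higher and 9 lower of 22 for cholesterol uptake, storage and efflux, and 10 higher and 9 lower of 27 for fat droplets and fatty acids.

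The contractile genes fell together. Of 28 tested smooth muscle and sarcomere genes 26 fell and none rose, 14 of them by at least 2-fold, with a median of -0.92. Acta2, smooth muscle actin, had 1878, 2089, 1937 and 2021 CPM in Control and 730, 802, 736 and 858 CPM with LPS (-1.34 ± 0.07, edgeR adjusted p = 1.45e-08). Myh11, smooth muscle myosin, went from 194, 212, 210 and 216 CPM to 56.5, 56.6, 53.6 and 59.3 CPM (-1.88 ± 0.04), and the enteric actin Actg2 from 140, 158, 143 and 148 CPM to 32.6, 34.6, 30.7 and 32.3 CPM (-2.18 ± 0.05). Each was below Control in every LPS library by more than the spread within either group. Lmod1, which starts actin filaments, went from 66.8, 76.7, 67.6 and 74.9 CPM to 11.7, 16.9, 13.1 and 14.6 CPM (-2.34 ± 0.09), and the calponin Cnn1 (-1.71) and transgelin Tagln (-1.33) fell. The largest falls of the list were in genes best known from the heart: Mybpc3, the myosin-binding protein, fell from 28.8, 31.1, 31 and 33.9 CPM to 2.05, 2.59, 2.65 and 1.82 CPM (-3.78 ± 0.09) and troponin Tnnt2 from 97.9, 122, 97 and 117 CPM to 17.4, 17.1, 14 and 18 CPM (-2.70 ± 0.11), and calsequestrin Casq2 was 8.01-fold lower. Srf, the factor that drives these genes, did not pass the test (-0.06 ± 0.03, edgeR adjusted p = 0.0885), except with upper-quartile factors (-0.07) and with LPS libraries 3 and 4 alone (-0.09), and its partner Myocd fell (-0.37 ± 0.07). Desmin, Des, was the other member not called (-0.12 ± 0.05), though it passed without LPS library 1 (-0.18), with LPS libraries 3 and 4 alone (-0.24), without the filter (-0.12) and in DESeq2 (-0.13). In a list of CCN genes, YAP targets and members of the tension-sensing YAP path itself, 13 of 14 tested genes fell. Ctgf went from 1410, 1461, 1469 and 1462 CPM to 595, 664, 747 and 749 CPM (-1.07 ± 0.06), and Ankrd1 (-0.95) and Wisp1 fell. Nov did not pass (0.11 ± 0.05), though it was higher without LPS library 3 (0.14), without the filter (0.11) and with library sizes alone (0.15).

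**Figure D4:**
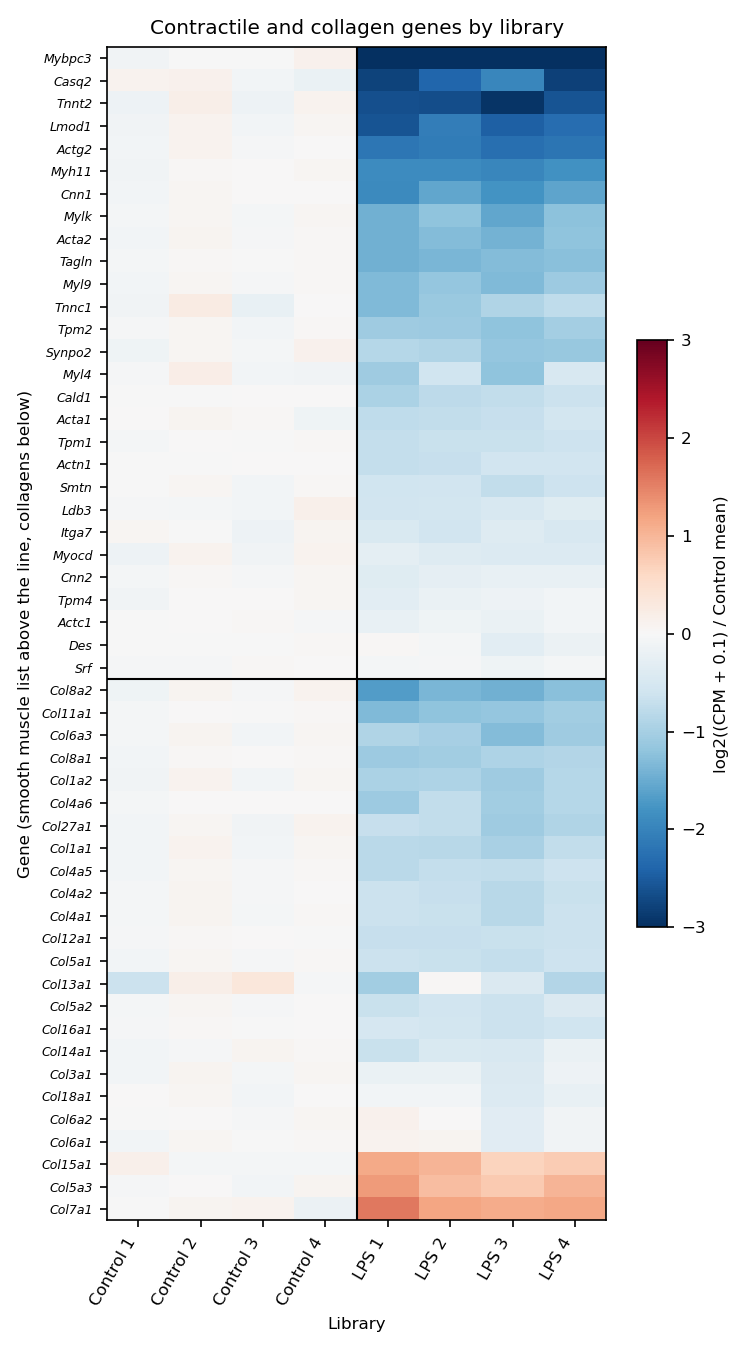
Rows are the tested smooth muscle and sarcomere genes (above the line) and collagen genes (below it), sorted by their difference, and columns are the 4 Control and 4 LPS libraries. Colour gives log2 of CPM plus 0.1 over the Control mean, limited to 3 either way; the LPS columns are blue for all but the last rows of the muscle genes, and Col7a1, Col5a3 and Col15a1 are the collagen rows that are red in all LPS columns.

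Most collagen genes fell, and other matrix genes moved both ways. Of 24 collagen genes 17 fell and 3 rose, with a median of -0.67. Col1a1, the main chain of type I collagen, had 4496, 5140, 4486 and 4965 CPM in Control and 2734, 2686, 2440 and 2845 CPM with LPS (-0.83 ± 0.06), and Col11a1, which seeds fibrils, went from 1506, 1598, 1572 and 1613 CPM to 628, 678, 704 and 759 CPM (-1.18 ± 0.06). Col3a1 fell by less (-0.24 ± 0.07). The 3 that rose were Col7a1, the anchoring fibril chain, from 8.38, 8.9, 9.08 and 7.44 CPM to 25.6, 19.4, 18.5 and 19.1 CPM (1.30 ± 0.10), Col5a3 (1.01 ± 0.09) and Col15a1 (0.91 ± 0.10, uncertain because of a row that may be its near copy). Elastin, Eln, fell from 114, 142, 116 and 130 CPM to 30.5, 33.2, 26.6 and 35.9 CPM (-1.99 ± 0.12), with the elastic fibre protein Fbln5 (-1.64), periostin Postn (-1.63) and the crosslinking enzyme Loxl2 (-1.03). Has2, the hyaluronan synthase that expands the cumulus matrix at ovulation, went the other way, from 2.51, 1.44, 2.39 and 2.34 CPM to 8.3, 8.36, 8.34 and 7.03 CPM (1.87 ± 0.15), and the hyaluronan-binding proteoglycan Vcan rose by 0.81 ± 0.05. Fibronectin, Fn1, went from 6416, 6216, 6267 and 5902 CPM to 6906, 6764, 7626 and 7646 CPM (0.22 ± 0.04), and the matricellular protein Thbs1 rose by 0.62 ± 0.03. Of 35 proteoglycan, elastic fibre and crosslinking genes 21 fell and 8 rose, and their summed level, in which Fn1 and Thbs1 are included, overlapped between groups at 18869 to 19616 CPM in Control and 17750 to 19577 CPM with LPS.

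Matrix protease and adhesion genes moved both ways. Mmp9, a gelatinase, had 2.73, 2.73, 2.05 and 1.94 CPM in Control and 24.2, 20.3, 20.5 and 20.4 CPM with LPS (3.17 ± 0.12), and the stromelysin Mmp3 (1.37) and the inhibitor Timp1 (0.69) rose, while the membrane protease Mmp14 (-0.41) and Adamts12 (-1.08) fell; of 30 proteases and inhibitors 14 rose and 8 fell, and their sum was 3941 to 4130 CPM in Control and 3499 to 3578 CPM with LPS. Vcam1 went from 12.6, 9.52, 10.9 and 8.17 CPM to 54.9, 56.1, 52.7 and 55.8 CPM (2.41 ± 0.08) and Icam1 from 114, 96.1, 109 and 97.7 CPM to 186, 178, 202 and 192 CPM (0.86 ± 0.05). P-selectin, Selp, stored in platelets and endothelium, rose at a low level from 0.159, 0.156, 0.146 and 0.0988 CPM to 1.28, 0.84, 1.17 and 1.57 CPM (3.09 ± 0.32). The cadherin Cdh2 rose by 0.74 ± 0.03, and the integrins Itga9 (-1.17) and Itgb3 (-0.63) fell. Adhesion genes were 18 higher and 12 lower of 35.

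Several growth factors that act on follicle cells fell sharply. Igf1, which supports granulosa and theca cells, had 625, 652, 650 and 655 CPM in Control and 224, 237, 251 and 242 CPM with LPS (-1.44 ± 0.03, edgeR adjusted p = 8.88e-24), and Bmp4, a theca product that restrains steroid synthesis, went from 75.9, 83.1, 79.3 and 84.9 CPM to 30.6, 36, 38.6 and 40.9 CPM (-1.14 ± 0.09). Tgfb3 fell from 196, 201, 199 and 190 CPM to 31.3, 36.4, 38.4 and 40.8 CPM (-2.42 ± 0.06), whereas Tgfb1 did not pass the test (-0.01 ± 0.06). The binding proteins of IGF differed among themselves: Igfbp4 went from 109, 99.4, 92.5 and 91.2 CPM to 327, 307, 236 and 299 CPM (1.57 ± 0.11) and Igfbp3 rose by 0.76, while Igfbp2 (-1.30) and Igfbp5 (-0.80) fell. Fgf7, a theca factor for epithelial cells, went from 2.44, 2.77, 1.22 and 1.48 CPM to 8.34, 8.22, 8.69 and 9.59 CPM (2.11 ± 0.17), and Ereg, an EGF-like factor of the ovulating follicle, rose by 2.83 ± 0.26 while Hbegf fell (-1.05 ± 0.06). The receptor Pdgfra went from 189, 187, 177 and 179 CPM to 380, 372, 335 and 375 CPM (1.00 ± 0.04) and Egfr rose by 0.57, and Pdgfrb fell (-0.54 ± 0.05). Over the lists 16 of 39 IGF, FGF, PDGF, HGF and EGF genes rose and 15 fell, and 9 of 36 TGF-beta, activin and BMP genes rose and 14 fell.

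Hedgehog genes respond in theca cells to granulosa signals. Hhip, a Hedgehog-binding inhibitor, fell from 1.68, 1.95, 2.1 and 1.75 CPM to 1.39, 0.945, 0.624 and 0.875 CPM (-0.94 ± 0.20), and neither Gli1 (-0.10 ± 0.13) nor Ptch1 (0.11 ± 0.05) passed the test, although Ptch1 was higher without LPS library 3 or 4 (0.15 and 0.14), with LPS libraries 1 and 2 alone (0.21) and with library sizes alone (0.15). Sfrp2, a secreted Wnt modulator, went from 2.57, 2.3, 2.64 and 2.5 CPM to 10.2, 8.92, 15.6 and 11.3 CPM (2.19 ± 0.19) with LPS library 3 the highest, and Wnt5a did not pass (0.10 ± 0.05) except with library sizes alone (0.14). In the Wnt, Notch and Hedgehog list 20 of 45 rose and 7 fell. Of the 20 VEGF, angiopoietin and hypoxia genes 8 rose and 3 fell; Vegfa did not pass (0.14 ± 0.09), and 5 fell with LPS libraries 1 and 2 alone. Prnp, the prion protein, was a fall outside these paths, from 1343, 1466, 1381 and 1441 CPM to 387, 429, 425 and 455 CPM (-1.73 ± 0.04). Capn6, a calpain relative without protease activity, fell from 6.38, 8.82, 6.44 and 7.97 CPM to 1.35, 1.22, 1.33 and 1.22 CPM (-2.53 ± 0.13), and no LPS library reached the Control range for either gene.

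Cell division genes were at or slightly below Control, and those counts depended on the libraries and the scaling. Of 33 G2 and mitosis genes 18 fell and none rose, with a median of -0.14; the number that fell was 11 with library sizes alone, 10 without Control library 4, 11 without LPS library 1 and 9 with LPS libraries 3 and 4 alone. Of 34 DNA replication genes 8 fell and 2 rose (4 without LPS library 2), with a median of -0.06, and 2 fell with LPS libraries 3 and 4 alone, 4 with library sizes alone and 5 without Control library 1 or LPS library 1. Mki67, the common proliferation marker, fell by a small amount (-0.22 ± 0.04), and so did Pcna, the replication clamp (-0.12 ± 0.05). The call on Pcna was lost with library sizes alone (-0.08) and without any 1 of Control libraries 1, 3 and 4 or LPS libraries 1, 2 and 4 (-0.10 to -0.12), and with either pair of LPS libraries alone (-0.15 and -0.10). Of 24 G1 genes 5 rose and 10 fell; Myc rose by 0.54 ± 0.04, and the number that rose was 2 without LPS library 1 or with LPS libraries 3 and 4 alone, and 3 without LPS library 4 or Control library 2 or 3.

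Unfolded protein, integrated stress and heat shock genes fell in 22 of 31 cases and 4 rose, with a median of -0.23. Hspa5, the main chaperone of the endoplasmic reticulum, went from 988, 1065, 1055 and 1080 CPM to 817, 855, 856 and 891 CPM (-0.29 ± 0.03), with no overlap. The small heat shock protein Hspb1 (-0.79) and the kinase-like Trib3 (-0.73) fell further. Lysosomal genes fell in 19 of 28 cases with 2 rising; Ctss, a protease of antigen-presenting cells, fell (-1.28 ± 0.10) and Ctsc rose (0.78 ± 0.06). Death genes were 9 higher and 6 lower of 30, or 15 higher with library sizes alone: the death receptor Fas rose from 14, 14.5, 13.3 and 14.7 CPM to 32, 32.1, 35.1 and 32.9 CPM (1.22 ± 0.06) and the inflammasome adaptor Pycard fell (-1.11 ± 0.16). Among 18 clock genes 3 rose (5 without Control library 1) and 8 fell, with Nfil3 at 0.84 ± 0.06 and Bhlhe41 at -1.38 ± 0.15. Among 30 cyclic AMP and calcium genes 12 rose and 7 fell, and the phosphodiesterases Pde4b (1.63 ± 0.07) and Pde4d (1.19 ± 0.06), which break down cyclic AMP, rose.

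Interferon response genes moved little as a group, and LPS library 3 stood apart from the other LPS libraries. Of 38 tested genes 8 rose and 7 fell, with a median of -0.04; the number that fell was 11 without LPS library 3, 4 without LPS library 1 and 3 without LPS library 4 or Control library 2. Their summed level was 4344, 4307, 4109 and 4258 CPM in Control and 4070, 4250, 4751 and 4069 CPM with LPS. Rsad2, an antiviral enzyme, had 28.9, 29.8, 28 and 26 CPM in Control and 19.5, 20.4, 42.7 and 18.9 CPM with LPS, so that LPS library 3 was above the other 7 libraries and the remaining LPS libraries were below all Control libraries; it did not pass the test (-0.16 ± 0.28), and without LPS library 3 it was lower (-0.53, edgeR adjusted p = 0.0408). Mx1, an antiviral GTPase, had 136, 136, 124 and 127 CPM and 105, 112, 137 and 102 CPM, again highest in LPS library 3, and did not pass (-0.20 ± 0.13). Other members of the list were above Control in every LPS library: the guanylate-binding Gbp5 from 26.6, 24.7, 23.7 and 23.4 CPM to 49.6, 52.8, 58.6 and 52.8 CPM (1.12 ± 0.05), and the ubiquitin-like Ubd from 0.698, 0.742, 0.537 and 0.724 CPM to 4.32, 4.48, 4.99 and 5.04 CPM (2.77 ± 0.16). MHC class I genes rose in 7 of 18 cases and fell in 1, and 12 rose with library sizes alone.

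Markers of other cells in the cultures moved with LPS. Macrophage markers fell in 23 of 31 tested genes, 18 by at least 2-fold, and 3 rose, with a median of -1.12; their summed level was 752 to 789 CPM in Control and 400 to 438 CPM with LPS (exact permutation test over 70 arrangements, two-sided p = 0.0286, the smallest it allows, and 0.0524 adjusted over 11 such values). Gpnmb, a membrane glycoprotein that other cells also make, held most of that sum, with 508, 511, 487 and 492 CPM in Control and 244, 234, 257 and 257 CPM with LPS (-1.01 ± 0.03). Without Gpnmb, a sum taken after its values were seen, the markers were at 264 to 278 CPM and 166 to 180 CPM. The lysozyme Lyz2 went from 25.8, 28, 26.7 and 29.2 CPM to 7.35, 7.66, 8.81 and 8.05 CPM (-1.79 ± 0.06), and the surface markers Siglec1 (-3.37 ± 0.17), Clec4a3 (-2.74 ± 0.17), Trem2 (-2.38 ± 0.17), Csf1r (-1.25 ± 0.09) and Cd68 (-1.25 ± 0.07) fell. Emr1, the F4/80 antigen, went against them, from 18.8, 16.9, 16 and 18.7 CPM to 21.6, 20.7, 22.4 and 23 CPM (0.31 ± 0.06), and so did the Fc receptor Fcgr2b (0.67 ± 0.13). Marco, Cx3cr1 and Vsig4 were under the filter. MHC class II genes fell in 8 of 9 cases, or 5 with LPS libraries 3 and 4 alone. The number that fell was also 5 under a stricter filter, which may leave fewer of the 9 in the test. Their sum went from 21.2 to 24.4 CPM in Control to 9.69 to 12.1 CPM with LPS. None of 17 neutrophil and mast cell markers passed the filter. Of 7 tested T, B and NK cell markers 2 fell, Cd4 (-1.27 ± 0.08) and Cd79a (-0.80 ± 0.12). The other 12 of the 19 markers were under the filter or had no row, so the list does not speak for these cells as a group. Which cells made Cd4 was not tested.

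Endothelial markers rose in 16 of 20 tested genes and 1 fell, with a median of 0.73. Vwf, the clotting factor carrier of endothelium, went from 5.49, 4.37, 4.73 and 4.97 CPM to 13.2, 12, 9.63 and 10.5 CPM (1.20 ± 0.10), and Pecam1 (0.95) and Emcn (1.14) rose while Eng fell (-0.58 ± 0.03). The summed level was 450 to 494 CPM in Control and 491 to 627 CPM with LPS, which overlapped (exact permutation p = 0.0571, 0.0898 adjusted). The rises of Vcam1, Icam1 and Selp, which endothelium also makes, lie beside that sum, and its part in them was not tested. Epithelial keratins Krt18 (-2.02 ± 0.09) and Krt8 (-1.26 ± 0.07) fell and mesothelin, Msln, rose (3.02 ± 0.25); 6 of 14 surface epithelium and mesothelial markers rose and 3 fell, and their sum was 105 to 108 CPM in Control and 125 to 144 CPM with LPS. Granulosa and luteal markers, with 5 higher (3 without LPS library 1) and 3 lower of 14, summed to 1003 to 1112 CPM and 976 to 1167 CPM (exact permutation p = 0.486). That sum includes Akr1c3, whose rise is given above, and members that fell, so its overlap does not mean unchanged members. Of 25 theca and stromal genes, which define the labelled cells, 10 rose and 8 fell, and all 25 passed the filter. Lhcgr, the luteinizing hormone receptor, had 2.06, 2.22, 2.05 and 1.75 CPM in Control and 3.62, 2.38, 1.99 and 2.45 CPM with LPS, and the theca hormone Insl3 had 0.254, 0.156, 0.244 and 0.263 CPM and 0.329, 0.56, 0.507 and 0.35 CPM. Both were detected in every library at low levels. Lhcgr did not pass the test (0.38 ± 0.16), but it did without LPS library 2 or 3 (0.42 and 0.48), with LPS libraries 1 and 2 alone (0.57), without the filter (0.38) and with library sizes alone (0.42). The rise of Insl3 (0.90 ± 0.35) was lost without any 1 Control library or LPS library 2 or 3 (0.75 to 0.98), with either pair of LPS libraries alone (0.94 and 0.86), without the filter (0.90) and in DESeq2 (0.91). The sum over the list, in which Col1a1 is included, was 6935 to 7680 CPM in Control and 5094 to 5630 CPM with LPS. Col1a1 alone, with the CPM given above, fell on average by more than the whole sum. The fall of the sum therefore does not mean that the other members fell.

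Within the LPS group, libraries 3 and 4 differed from libraries 1 and 2 in genes of the oocyte. A list of 25 oocyte genes, drawn up after this spread was seen, was below every Control library in LPS libraries 3 and 4 for all 25 genes, against 24.8% of all genes tested. LPS libraries 3 and 4 were both below LPS libraries 1 and 2 for 23 of the 25; over all genes tested 20.1% lay so, and 21.2% had both above. Their summed level was 337, 361, 328 and 315 CPM in Control libraries 1 to 4, 268, 334, 190 and 158 CPM in LPS libraries 1 to 4 and 233, 274, 236 and 184 CPM in IL1b libraries 1 to 4. Gdf9, a factor the oocyte secretes, had 21.6, 23.9, 22.4 and 19.6 CPM in Control and 16.1, 22.1, 11.3 and 8.99 CPM with LPS, and the egg coat gene Zp2 had 76.9, 76, 75.9 and 73.7 CPM and 59.5, 68.2, 46.2 and 39.3 CPM. LPS library 2 was the closest to Control and LPS library 4 the lowest for both genes. Gdf9 did not pass the test (-0.57 ± 0.25) but was lower without LPS library 2 (-0.85), with LPS libraries 3 and 4 alone (-1.11) and in limma-voom (-0.65), and the fall of Zp2 (-0.50 ± 0.15) was lost without Control library 1 or 2 (-0.49 and -0.50) or LPS library 3 (-0.44), and with the 8 libraries alone (-0.51). In the test of LPS against Control 5 of the 25 fell and none rose. Other genes set a single LPS library apart. Inhbb, an inhibin and activin subunit of granulosa cells, had 27.8, 33.6, 32.1 and 38.1 CPM in Control and 53.3, 55.4, 51.8 and 26.4 CPM with LPS, so LPS library 4 alone was at the Control level, and it did not pass the test (0.50 ± 0.29) unless LPS library 4 was left out (0.70, edgeR adjusted p = 0.0493). Clic5, an intracellular chloride channel protein, had 5.46, 4.8, 5.03 and 4.84 CPM and 11, 7.31, 15.3 and 6.44 CPM, with LPS library 3 the highest; its rise (0.98 ± 0.33) no longer passed without any 1 of the Control libraries or LPS library 1 or 3 (0.71 to 1.03), with either pair of LPS libraries alone (0.86 and 1.09) or without the filter (0.98). With LPS libraries 1 and 2 alone 6504 genes were called against Control, and with LPS libraries 3 and 4 alone 6616, against 7358 with all 4.

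**Figure D5:**
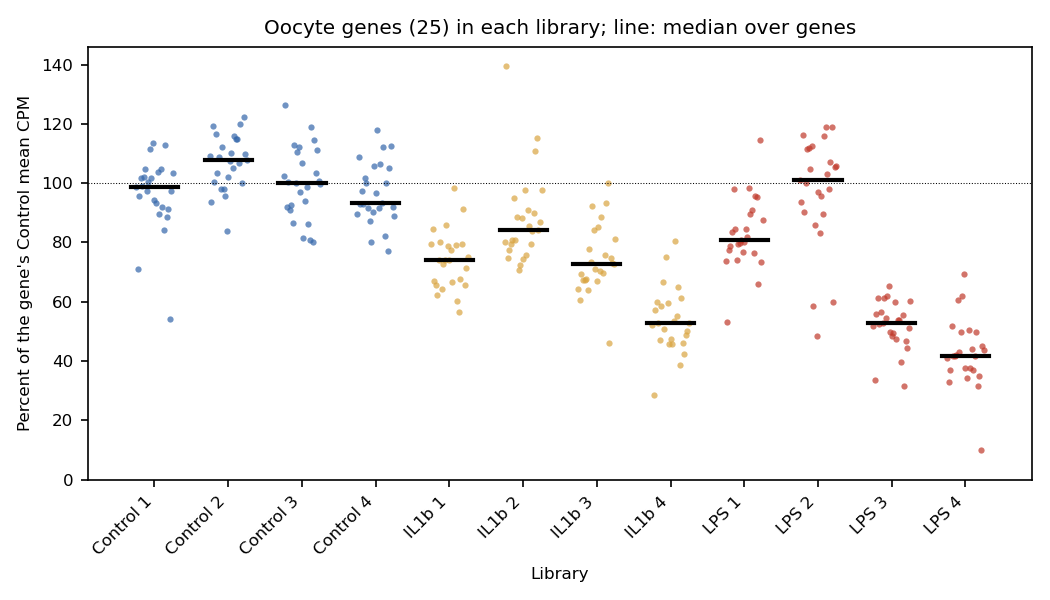
Points are 25 oocyte genes in each of the 12 libraries (Control blue, IL1b yellow, LPS red), as percent of the gene's mean CPM in Control on an axis from 0, and the black line is the median over genes. LPS libraries 3 and 4 lie below all Control libraries, LPS library 2 lies among them and LPS library 1 between.

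LPS and IL1b cultures were compared directly, since IL1b also signals through Myd88 but not through Tlr4: 3791 genes (21.9%) passed the test, 1960 higher and 1831 lower with LPS. This contrast shares the LPS libraries with the one against Control. Irg1 had 5.21 ± 0.672 CPM (mean ± SD, n = 4) with LPS and 0.22 ± 0.0587 CPM with IL1b, a log2 difference of 4.54 ± 0.22. Il1b itself was higher with LPS by 3.71 ± 0.15, Il1a by 2.52 ± 0.14, Ubd by 2.35 ± 0.15, the macrophage marker Emr1 by 1.88 ± 0.07 and Nos2 by 1.70 ± 0.07. The antibacterial Reg3b (-1.87 ± 0.10), the lectin Clec10a of macrophages (-4.05 ± 0.19), C1qa (-2.53 ± 0.16), Cd36 (-1.95 ± 0.09) and Cyp17a1 (-2.19 ± 0.21) were lower with LPS than with IL1b. Cyp17a1 had 3.39 ± 1.37 CPM with LPS, 15.5 ± 2.59 CPM with IL1b and 0.537 ± 0.101 CPM in Control, so that the LPS cultures lay between the other groups.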

How the data were processed

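TopHat2 2.1.1, SAMtools and DESeq2 with the build Rnor_6.0 are named per the submitters' processing notes; the counting program, its annotation and its handling of reads shared by genes are not given in the sources used here. The authors deposited raw read counts per gene symbol for single libraries. Libraries were grouped by their titles. Of 30045 rows, 1425 had no count, and edgeR's filterByExpr kept 17330. Counts of all 12 libraries were scaled by TMM (factors 0.976 to 1.02) and fitted with edgeR 4.0.16 (robust quasi-likelihood, R 4.3.3), with Benjamini-Hochberg adjustment over all genes, a threshold of 0.05 and no fold minimum. Only the edgeR steps were tested on simulated counts, with far fewer changed genes than were called here. Alternatives used other scalings, filters, tools (DESeq2 1.42.0, limma 3.58.1) and subsets of libraries. Members and gene lists were chosen with earlier results of these data known. Named genes are those with extreme differences and, from each list, all tested members or the 8 with the smallest p, plus a fixed panel. Another 57 list members and 5 other genes named here were chosen after their values were seen. So were Cyp19a1, Tnf, Il1rn, Cd40 and Ebi3, whose calls in the alternatives are not reported. Some members of the lists are counted but not reported by name. Promoters came from RefSeq (GRCr8), a build other than that of the counts. Where a row has a near copy (A2m, Nos2, Hsd3b6, Col15a1), reads may be split.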

Additional observations from a re-analysis of the deposited data

Results flagged for a closer look

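Among the 494 groups of 4 libraries checked over 247 of the genes named (Control and LPS for each gene), 33 (6.68%) had 1 library far from the other 3, where chance alone gives about 1 group in 20. LPS library 3 held 11 of them and Control library 1 held 7.

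In LPS library 3 the interferon genes Rsad2 (42.7 CPM against 18.9 to 20.4 in the other LPS libraries) and Tapbp (127 against 115 to 117) were high, as were the proliferation marker Mki67 (248 against 212 to 217), Akr1c3 (221 against 182 to 187), Tlr4 (12.7 against 10.6 to 10.8), Ccl12 (7.37 against 6.79 to 6.88) and Plin4 (2.61 against 1.82 to 1.94). Col3a1 (2430 against 2852 to 2934), Eng (139 against 149), Loxl2 (127 against 130 to 131) and Zfp36 (35.2 against 36.4 to 36.6) were low there. For Mki67, LPS library 3 was at the Control level of 247 CPM in Control library 1.

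In LPS library 4 Inhbb was at 26.4 CPM against 51.8 to 55.4, and Has2 at 7.03 against 8.3 to 8.36. In LPS library 1 Col7a1 was at 25.6 CPM and Mmp9 at 24.2, both above the rest, and in LPS library 2 Cxcl12 was below the rest at 584 CPM.

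In Control library 1 Bcl3 (8.19 CPM), Ccl12 (1.84), Col15a1 (83.5), Il6r (14.7), Ly96 (15.9) and Pde4d (9.17) were high and Ctgf (1410) was low. In Control library 2 Lbp (2.85) and Il10 (0.195) were high and Has2 (1.44) and Tlr2 (9.6) low. Control library 3 was low for Abcg1 (33.2) and Plin4 (10.5). Control library 4 was high for Cebpb (15.7) and Des (70.4) and low for Hsd3b6 (27.4) and Nr4a1 (16.1).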

How the results depend on the processing

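Counts of called genes kept to within 1.5 times their values in every alternative run. The 7358 genes called against Control became 7288 with DESeq2 size factors, 7253 with upper-quartile factors, 7907 with library sizes alone, 7449 without a filter, 7101 with a stricter filter, 7257 without the 10 most abundant genes and 7109 with the 8 libraries alone. DESeq2's Wald test called 6705 and limma-voom 7412, and 5597 had an adjusted p under 0.01. Leaving out 1 library at a time gave 6628 to 7047. Genes called higher made up 53.0% of calls with TMM, 50.5% with DESeq2 size factors, 49.3% with upper-quartile factors and 63.4% with library sizes alone, where the median difference over the genes tested was 0.049 against 0.010 with TMM. The replicate numbers were not taken as pairs, since the labels state no block. Correlations of deviations between same-numbered Control and LPS libraries were 0.008, 0.051, 0.055 and 0.018, small but all positive. Those between libraries of different numbers ran from -0.06 to 0.021. With the number as a replicate block 7730 genes were called, 4076 higher and 3654 lower, and in the glycolysis list 14 genes rose instead of 9; Hmox1 (-0.34), Nqo1 (0.20), Slc16a3 (0.47), Hk2 (0.17), Vegfa (0.14), Gdf9 (-0.61), Des (-0.12), Lhcgr (0.38), Nov (0.10), Arg2 (-0.35) and Tfrc (-0.20) passed there but not in the test reported. Of 247 named genes followed through the alternatives, 223 kept their call in each alternative that tested them but the threshold of 0.01. At that threshold 7 were lost, and none reversed in any alternative. The fits with LPS libraries 1 and 2 alone (6504 calls) and 3 and 4 alone (6616) were chosen after seeing the data. Low counts limit the precision for Reg3g, Reg1a, Csf3, Cxcl2 and Selp in Control, where a few reads set the level.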

Other observations

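Carriers for amino acids and other small molecules moved both ways, with 7 of 20 tested genes higher and 10 lower with LPS. Slc1a3, a glutamate carrier, rose from 2.35, 1.41, 2.34 and 1.94 CPM in Control libraries 1 to 4 to 4.68, 4.37, 4.75 and 4.58 CPM in LPS libraries 1 to 4 (1.19 ± 0.15, log2 difference ± SE), and Slc15a3, a lysosomal peptide carrier, had 7.96, 8.59, 7.52 and 7.74 CPM and 13.3, 14, 13.1 and 12.7 CPM (0.74 ± 0.07). Slc6a9, a glycine carrier, fell from 44.6, 44.6, 42.1 and 40.9 CPM to 32.4, 29.2, 33.2 and 29.9 CPM (-0.47 ± 0.05). The glutamine carrier Slc1a5 rose (0.45 ± 0.05), while Slc3a2, the shared heavy chain of several amino acid carriers, and its partner Slc7a5 fell (-0.28 ± 0.04 and -0.37 ± 0.05).

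A few genes of oxidant defence and lactate export followed the replicate numbers within both groups. Nqo1, a quinone reductase, had 30.5, 19.4, 31.8 and 21 CPM in Control and 30.9, 23.9, 34.5 and 28.1 CPM with LPS, and Hmox1 had 104, 76.9, 98.2 and 70.6 CPM and 76.6, 55.9, 84.7 and 59.2 CPM. Slc7a11, the cystine carrier, had 18.6, 13.3, 19 and 13.5 CPM and 20.8, 12.9, 27.8 and 14.6 CPM, and Slc16a3, a lactate exporter, had 9.52, 6.17, 9.27 and 6.29 CPM and 12.4, 10.1, 12.3 and 8.22 CPM. In each of these genes libraries 1 and 3 lay above libraries 2 and 4 in both groups, and none passed edgeR's test of LPS against Control, though Hmox1 (-0.34) and Slc16a3 (0.47) did in limma-voom and Slc16a3 without LPS library 4 (0.58). They were picked after their values were seen, and the labels do not say what libraries of one number share.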
